A study of Mus musculus with 8 samples.

Results

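The genes described here are the Reg lectins Reg1, Reg3a, Reg3b, Reg3g and Reg4 and the genes of the interleukin-22 (IL-22) axis, Il22, Il22ra1, Il22ra2, Il10rb and Stat3, in the ileum of mice treated with irinotecan. The 10 genes were taken by their symbols from the 55487 genes of the deposited table, as members of a known family and pathway, with earlier results of these data known. Irinotecan is a topoisomerase I inhibitor used in chemotherapy that injures the intestinal lining, and gasdermin E, the product of Gsdme, forms membrane pores once caspases have cleaved it. Bulk poly(A) RNA-seq compared 4 wild-type mice (WT, genotype Gsdme+/+) with 4 Gsdme-deficient mice (Gsdme_KO, genotype Gsdme-/-), and mice of both genotypes had received irinotecan. The labels used here give no strain, age, sex, dose, or interval between treatment and sampling, and no untreated mice were analysed here, so a value describes a genotype under treatment. Libraries carry the names of the table's headers: KO4, KO5, KO7 and KO8 are Gsdme_KO, and WT3, WT5, WT7 and WT8 are WT.

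Reg lectins are small secreted proteins of the C-type lectin family. In the small intestine Reg3b and Reg3g are made by enterocytes and Paneth cells and hold bacteria away from the epithelial surface, Reg3g chiefly Gram-positive ones. IL-22 is a cytokine of type 3 innate lymphoid cells and Th17 cells. It binds a receptor formed by IL-22RA1, which epithelial cells carry, and IL-10RB, which is widely expressed, and the receptor acts through JAK kinases and the transcription factor STAT3, with Reg3b and Reg3g among its classical target genes. IL-22RA2 is a soluble decoy receptor that captures IL-22.

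The main feature of these genes was a split among the Gsdme_KO libraries. Reg3b and Reg3g were lower in KO5, KO7 and KO8 than in every WT library and higher in KO4 than in every WT library. KO4 also held most of the Il22 reads of the series and the highest Stat3, and it had the lowest Reg4 and Il22ra1. No gene among the 10 passed the test between genotypes. The test was limma-trend on log2(normalized count + 1), with Benjamini-Hochberg adjustment over the 16352 genes whose mean was at least 10 normalized counts. Of the 10 genes, 0 were called higher and 0 lower at an adjusted p under 0.05. Over all tested genes 1 was called higher (0.00612%) and 0 lower (0%), so a count of 0 among 10 genes does not set them apart. At an unadjusted p under 0.05, limma gave 0 of the 10 genes, against 427 higher and 290 lower over the table, and edgeR gave Il22 alone (unadjusted p = 0.0434, edgeR adjusted p = 0.812), against 724 higher and 258 lower over the table. Il22 was tested only because of its KO4 value. edgeR called 0 of the 10, and DESeq2 called 0 and gave no p for Reg3b, Reg3g and Il22.

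Sequences upstream of the Reg3 genes are shown because Reg3b and Reg3g varied together while Reg3a, their neighbour, did not follow them in KO4. Each runs 5′ to 3′ on the gene's own strand, from 150 to 25 bases before the RefSeq transcription start, and is credited to RefSeq, build GRCm38.p6. Capitals mark a match to TTCNNNGAA, the palindromic core of a STAT binding motif, which reads the same on both strands. The windows are chr6:78370735-78370860 on the plus strand for Reg3b, chr6:78468899-78469024 on the minus strand for Reg3g and chr6:78380559-78380684 on the plus strand for Reg3a. The Reg3b window precedes the start of the RefSeq transcript but lies within the GENCODE gene interval, in the first intron of a longer transcript whose first exon is farther upstream.
Reg3b: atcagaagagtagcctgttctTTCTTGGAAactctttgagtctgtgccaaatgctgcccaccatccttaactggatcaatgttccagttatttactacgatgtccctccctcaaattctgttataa
Reg3g: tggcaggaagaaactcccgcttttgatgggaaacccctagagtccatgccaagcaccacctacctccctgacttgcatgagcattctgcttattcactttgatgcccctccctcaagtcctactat
Reg3a: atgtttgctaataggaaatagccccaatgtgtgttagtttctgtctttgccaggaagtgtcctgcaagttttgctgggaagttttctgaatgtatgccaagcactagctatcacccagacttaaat
The Reg3b window holds 1 match, TTCTTGGAA, which begins 129 bases before the start site, and the Reg3g and Reg3a windows hold 0. A RefSeq promoter entry was found for 8 of the 10 genes. In the full 250 bases upstream, Reg3b was the sole gene of those 8 with a match, and 7.02% of all 32851 promoters in the table (2306) hold one. Of the other Reg genes of the cluster, Reg3d also held a match (TTCCCAGAA, 238 bases before its start) and Reg2 held 0. A match or its absence describes these letters and this window only. The Reg3b and Reg3g windows were identical at 62.5% of aligned positions, against 48.6% for Reg3b and Reg3a and 45.7% for Reg3g and Reg3a.

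The genes lie at several loci (GRCm38, GENCODE M21). Reg3b (ENSMUSG00000071356, chromosome 6, 78370657 to 78373466, plus strand), Reg3a (ENSMUSG00000079516, chromosome 6, 78380709 to 78383827, plus strand), Reg1 (ENSMUSG00000059654, chromosome 6, 78422711 to 78428667, plus strand) and Reg3g (ENSMUSG00000030017, chromosome 6, 78466269 to 78468872, minus strand) share a cluster of 98.2 kb with Reg2 and Reg3d. That cluster is on the chromosome of Gsdme, 28.1 Mb away. Reg4 (ENSMUSG00000027876) is on chromosome 3 at 98222156 to 98236748, plus strand. Il22 (ENSMUSG00000074695, chromosome 10, 118204942 to 118210047, plus strand) and Il22ra2 (ENSMUSG00000039760, chromosome 10, 19621998 to 19634681, plus strand) lie far apart on 1 chromosome. Il22ra1 (ENSMUSG00000037157) is on chromosome 4 at 135728172 to 135752140, plus strand, Il10rb (ENSMUSG00000022969) on chromosome 16 at 91406164 to 91425834, plus strand, and Stat3 (ENSMUSG00000004040) on chromosome 11 at 100885098 to 100939540, minus strand. The transcripts of Reg3b and Reg3g were identical at 67.7% of aligned positions and shared 0 windows of 50 bases with any other Reg gene compared, so that reads of that length separate them. Il22 differs: its transcript was 97.3% identical to that of its paralog Iltifb and shared 41.0% of its 50-base windows with it, so the counts of Il22 are uncertain where reads could have been split between the pair.

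The libraries held 15617407 (KO7) to 23437343 (KO5) reads in genes. Gsdme, the targeted gene, ran from 2169 to 3376 normalized counts in WT and from 113 to 634 in Gsdme_KO, with no overlap (two-sided exact permutation p = 0.0286, the smallest that 70 assignments allow). Its limma log2 fold change was -3.32 (unadjusted p = 9.62e-05, limma adjusted p = 0.786), while DESeq2 called it (DESeq2 adjusted p = 2.12e-07). The limma threshold over all genes thus missed the targeted gene too, so a gene without a call is not shown to be unchanged. In cell type markers, KO4 and KO5 differed from the rest. The 12 B cell and follicle markers summed to 268 to 407 normalized counts in WT, 311 in KO8, 374 in KO7, 6652 in KO5 and 11670.1 in KO4. The 12 mature enterocyte markers summed to 351506 to 615396 in WT, to 191803 in KO4, to 267337 in KO5, and to 612201 and 454281 in KO7 and KO8. The tissue label held in that the ileal bile acid genes Fabp6 and Slc10a2 were present in every library. The 6 ileum identity markers, however, summed to 34736 in KO4 and 48178 in KO5, below the WT range of 52422.5 to 126815. Their sums in KO7 and KO8, 116503 and 95961.5, lay inside that range. In bulk RNA, fewer cells of a type and less RNA per cell cannot be told apart. Per the labels each library is a separate mouse, and p-values measure the spread between these mice.

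Reg3b was among the most abundant transcripts of the ileum. It held 96313 normalized counts in WT3, 83232 in WT5, 88751 in WT7 and 140087 in WT8. In Gsdme_KO it held 167295 in KO4 but 37374, 27177 and 38175 in KO5, KO7 and KO8. The 3 lower Gsdme_KO libraries sat below the lowest WT library and KO4 above the highest, so the genotypes overlapped through KO4 alone. The WT mean was 102096 ± 25889 and the Gsdme_KO mean 67505 ± 66715 (SD, n = 4 each). The limma log2 fold change of Reg3b, Gsdme_KO against WT, was -0.99 ± 0.52 (SE, 95% interval -2.18 to 0.20, unadjusted p = 0.0935, limma adjusted p = 0.849), and edgeR and DESeq2 gave -0.59 and -0.60. Without KO4 the mean of the 3 remaining libraries was 34242 ± 6131 (SD, n = 3), or 33.5% of the WT mean. Their log2 fold change was -1.56 ± 0.24 (SE, limma adjusted p = 0.787, unadjusted p = 0.000145), which did not pass the threshold over all genes either. Leaving out the library that went the other way narrows the spread, so this unadjusted p is a description and no test.

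Reg3g gave much the same picture. It held 50676 normalized counts in WT3, 41527 in WT5, 46406 in WT7 and 95493 in WT8, then 181666 in KO4 and 29763, 13789 and 20516 in KO5, KO7 and KO8. WT8 was the highest WT library for both lectins, and KO7 the lowest of all 8. The arithmetic means of Reg3g were close, 58526 ± 24927 for WT and 61434 ± 80422 for Gsdme_KO (SD, n = 4 each). On the log scale the difference pointed down, by a log2 fold change of -0.65 (SE 0.72, 95% interval -2.30 to 0.99, limma adjusted p = 0.875), whereas the count-based edgeR and DESeq2 fits gave 0.07 each. The sign for Reg3g therefore depends on whether KO4 is weighted on a log or a linear scale. Without KO4 the mean was 21356 ± 8020 (SD, n = 3), 36.5% of WT, and the log2 fold change was -1.44 ± 0.34 (unadjusted p = 0.00283, limma adjusted p = 0.9998). As for Reg3b, this unadjusted p rests on leaving out the opposing library and is a description.

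**Figure D1:**
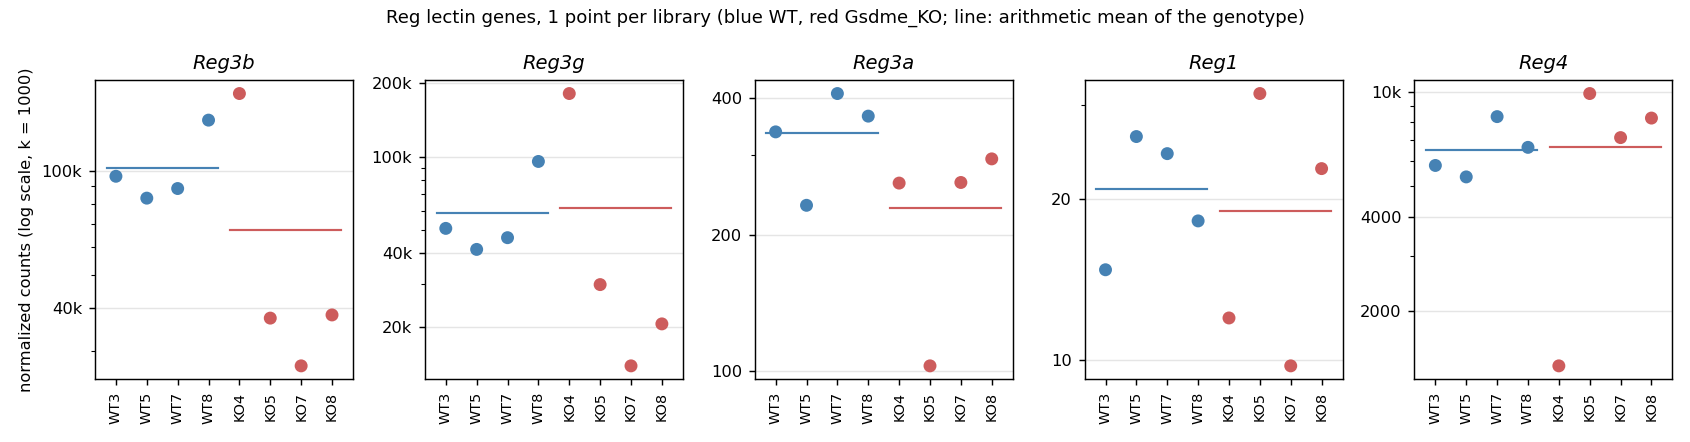
Normalized counts of Reg3b, Reg3g, Reg3a, Reg1 and Reg4 (log y axis, each panel with its own range), with 1 point for each of the 8 libraries on the x axis and a line at the arithmetic mean of each genotype. For Reg3b and Reg3g the points of KO5, KO7 and KO8 lie below all 4 WT points and that of KO4 above them, and for Reg4 the KO4 point, 1341, is the lowest.

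The joint pattern was counted against all genes. Of the 10 genes, 2 (Reg3b and Reg3g) were lower in each of KO5, KO7 and KO8 than in any WT library, which held for 375 of the 16352 tested genes (2.29%). The same 2 had KO4 above every WT library as well, which held for 71 tested genes (0.434%). KO4 was the highest of the 8 libraries for 4 of the 10 genes (Reg3b, Reg3g, Il22 and Stat3), beside 25.6% of all tested genes. Il22 passed the filter only through KO4, so its place among the 4 was fixed by the filter. Genotypes without overlap occurred for 0 of the 10 genes and for 409 tested genes (2.5%). These counts describe patterns that were already seen in the values and carry no test.

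As a share of each library, the 5 Reg lectins together took 0.798% of reads in WT3, 0.680% in WT5, 0.773% in WT7 and 1.42% in WT8. They took 1.97% in KO4, and 0.438%, 0.254% and 0.378% in KO5, KO7 and KO8. The exact 95% binomial interval for KO7 was 0.252% to 0.257% and that for KO4 was 1.96% to 1.97%, and such intervals cover counting error only. KO4 had the highest share of the 8 libraries and KO7 the lowest. Reg3b ranked 9th, 11th, 10th and 2nd among all genes in WT3, WT5, WT7 and WT8, and 3rd, 33rd, 64th and 34th in KO4, KO5, KO7 and KO8. Reg3g ranked 28th, 37th, 30th and 4th in the WT libraries in that order, and 2nd, 48th, 149th and 75th in the Gsdme_KO libraries.

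The balance between the 2 main lectins also moved. The ratio of Reg3g to Reg3b reads was 0.526 in WT3, 0.499 in WT5, 0.523 in WT7 and 0.682 in WT8. It was 1.09 in KO4 and 0.796 in KO5, with 0.507 for KO7 and 0.537 for KO8. KO4 was the sole library with more Reg3g than Reg3b reads, and KO5 had a high ratio at a low level of both. Reg3b and Reg3g made up 93.9% to 97.1% of Reg reads in WT, 99.5% in KO4 and 84.7% to 87.3% in the other 3 Gsdme_KO libraries, where Reg4 took most of the rest.

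**Figure D2:**
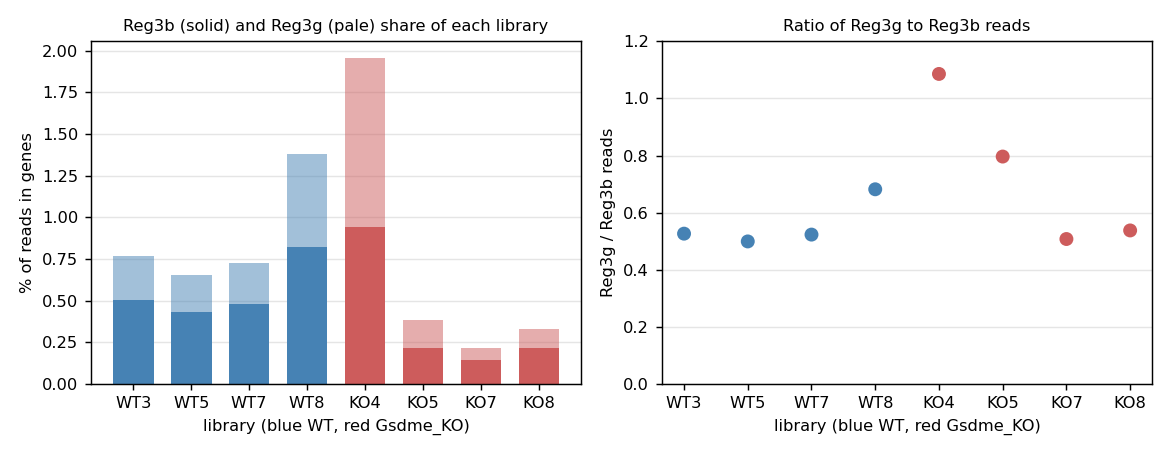
Left, percent of each library's reads in genes that came from Reg3b (solid) and Reg3g (pale, stacked above); right, the ratio of Reg3g to Reg3b reads; the x axis gives the 8 libraries, blue for WT and red for Gsdme_KO. The stacked bar of KO4 is the tallest and that of KO7 the shortest, and the ratio runs from 0.499 in WT5 to 1.09 in KO4.

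Reg3a was expressed at a far lower level than Reg3b and Reg3g. It held 337 normalized counts in WT3, 232 in WT5, 409 in WT7 and 365 in WT8, against 260 for KO4, 103 for KO5, 261 for KO7 and 294 for KO8. KO4 was not raised for Reg3a, and KO5 was the lowest library. The log2 fold change was -0.63 ± 0.33 (SE, 95% interval -1.38 to 0.13, limma adjusted p = 0.849), and -0.28 without KO5. Per kilobase of its transcript, Reg3a stood at 407 ± 91.2 normalized counts in WT, Reg3b at 130391 ± 33064 and Reg3g at 75909 ± 32330 (SD, n = 4 each), so Reg3a sat far below both.

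Reg1, a member best known from the pancreas and regenerating stomach, was near the filter. Its 8 libraries held 9.75 (KO7) to 31.5 (KO5) normalized counts, from 8 to 42 recovered reads. WT values of Reg1 ran from 14.8 to 26.2, inside the Gsdme_KO range, and the log2 fold change was -0.24 ± 0.40 (SE, limma adjusted p = 0.920) and 0.0147 without KO7. The other Reg genes of the cluster were lower still, Reg2 at 0 to 1.83 normalized counts and Reg3d at 0 to 8.26, and neither was tested. Of 15 exocrine pancreas genes, 6 (Cpa1, Cela2a, Cela3b, Prss2, Amy2b and Amy2a5) were at 0 in all 8 libraries. The list summed to 810 to 2708 normalized counts in WT and 1331 to 3775 in Gsdme_KO, led by Clps and Cela1, and was highest in KO5, as Reg1 was. The part of these genes in the Reg1 values was not tested.

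Reg4, the lectin of enteroendocrine and goblet-lineage cells, did not follow Reg3b and Reg3g. It held 5828 normalized counts in WT3, 5359 in WT5, 8337 in WT7 and 6655 in WT8. In Gsdme_KO it held 1341 in KO4 but 9875, 7149 and 8249 in KO5, KO7 and KO8. KO4 was low by itself, at 20.5% of the WT mean, while the other 3 Gsdme_KO libraries overlapped the WT range or exceeded it. The log2 fold change of Reg4 was -0.29 ± 0.57 (SE, limma adjusted p = 0.930) with KO4 and 0.37 ± 0.17 (limma adjusted p = 1.00) without it. The sign also turned with all 8 libraries, at 0.19 with array weights, 0.0313 with edgeR and 0.0249 with DESeq2. Goblet cell markers in KO4 summed to 185785, against 264533 to 377504 in WT and 287337 to 357110 in KO5, KO7 and KO8. Enteroendocrine markers summed to 5479 in KO4 and 6561 to 8967 in WT, but also to 6004 in KO7 and 5959 in KO8, where Reg4 was not low, and to 7080 in KO5. The part of these markers in the Reg4 value of KO4 was not tested.

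Il22, the ligand, was close to the limit of detection outside KO4. It had 0 recovered reads in WT3 and WT5, 1 in WT7 and 6 in WT8, and 2 in KO5, 2 in KO7 and 6 in KO8, but 81 in KO4. As normalized counts these are 0, 0, 1.11 and 4.97 in WT, 74.7 in KO4, and 1.50, 2.44 and 5.48 in KO5, KO7 and KO8. The highest library without KO4 was KO8, and the WT and remaining Gsdme_KO values overlapped. Il22 passed the filter on low values only through KO4. Its log2 fold change was 2.10 ± 1.11 (SE, 95% interval -0.43 to 4.62, limma adjusted p = 0.849). The size of that value depends on the pseudocount and the tool, from 1.18 to 3.72 over the alternatives that fitted it, and without KO4 it was not tested. Its paralog, deposited as Il22b and named Iltifb in GENCODE, was at 0 in 7 libraries and at 1.84 normalized counts in KO4.

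The receptor chains varied much less. Il22ra1, which sets the cells that can respond to IL-22, held 1154 normalized counts in WT3, 998 in WT5, 1013 in WT7 and 878 in WT8, and 629 for KO4, 846 for KO5, 1023 for KO7 and 959 for KO8. KO4 and KO5, the libraries with the lowest enterocyte marker sums, were also the lowest for Il22ra1. The part of those markers in the Il22ra1 values was not tested. The log2 fold change was -0.24 ± 0.16 (SE, 95% interval -0.60 to 0.11, limma adjusted p = 0.849) and without KO4 it was -0.10 ± 0.11. Il10rb, the shared chain that also serves IL-10 and the type III interferons, varied little, with 1096 to 1484 normalized counts in WT and 1236 to 1373 in Gsdme_KO. Its log2 fold change was -0.03 ± 0.10 (SE, 95% interval -0.26 to 0.21, limma adjusted p = 0.962), and 0.0102 and 0.0239 without WT3 and WT5.

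Il22ra2, the decoy receptor, which dendritic cells are known to make, varied widely within both genotypes. It held 78.3 normalized counts in WT3, 8.34 in WT5, 59.7 in WT7 and 108 in WT8, and 131 for KO4, 163 for KO5, 39.0 for KO7 and 29.2 for KO8. KO4 and KO5 were highest, and these also had the highest sums over the 10 dendritic cell markers, 7151 and 3861 against 2606 to 2939 in WT. The part of those markers in the Il22ra2 values was not tested. The log2 fold change of Il22ra2 was 0.60 ± 0.84 (SE, 95% interval -1.31 to 2.52, limma adjusted p = 0.901), and -0.18 without WT5, which held the lowest value. Reads of Il22 per read of Il22ra2 numbered 0.570 in KO4, and 0 to 0.188 in the other 7 libraries.

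Stat3, the transcription factor that relays the IL-22 signal, was high in KO4 and level elsewhere in the genotype. It held 3717 normalized counts in WT3, 4550 in WT5, 3943 in WT7 and 3406 in WT8, and 5379 for KO4, 3904 for KO5, 3872 for KO7 and 3827 for KO8. The 3 latter libraries fell inside the WT range, with a mean of 3868 ± 38.8 (SD, n = 3) against 3904 ± 484 in WT (SD, n = 4). The log2 fold change of Stat3 was 0.11 ± 0.14 (SE, 95% interval -0.20 to 0.43, limma adjusted p = 0.882) and without KO4 it was -0.01 ± 0.10.

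**Figure D3:**
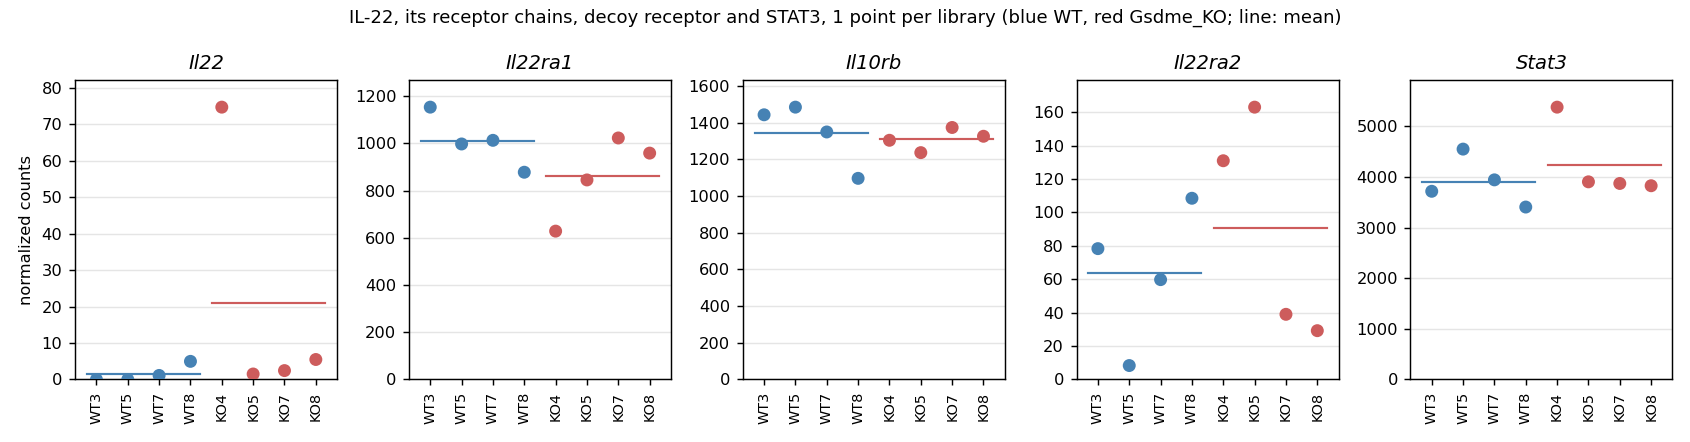
Normalized counts (linear y axis from 0) of Il22, Il22ra1, Il10rb, Il22ra2 and Stat3 in the 8 libraries on the x axis, with a line at the mean of each genotype. Il22 reaches 74.7 in KO4 and at most 5.48 elsewhere, Stat3 is highest in KO4 at 5379, and Il22ra1 is lowest there at 629.

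**Figure D4:**
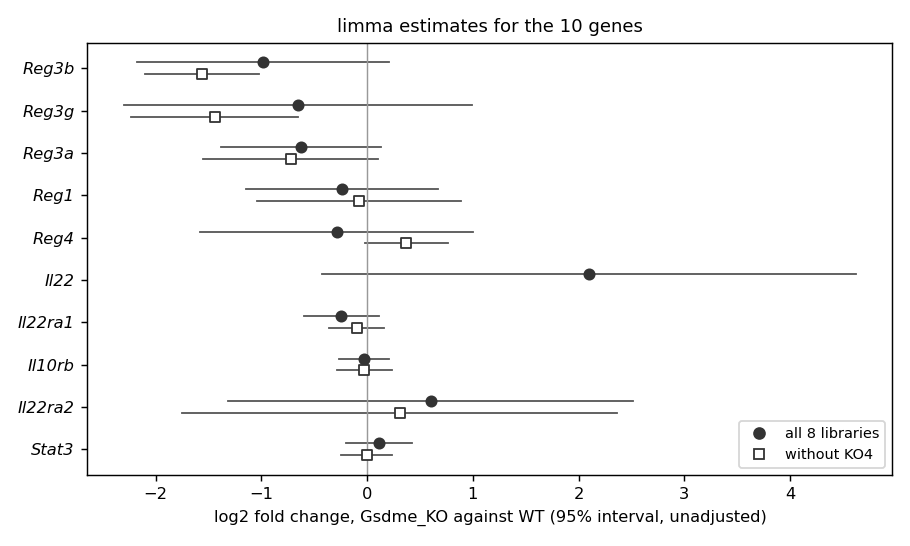
limma log2 fold changes (x axis, Gsdme_KO against WT) of the 10 genes (y axis) with unadjusted 95% intervals, from all 8 libraries (filled circles) and without KO4 (open squares; Il22 then fell under the filter). With all libraries each interval includes 0, and without KO4 those of Reg3b and Reg3g do not, while limma adjusted p-values remained 0.787 or above. KO4 is the library that went the other way for Reg3b and Reg3g, so their intervals without it are a description.

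Order by level was set by length-scaled values, using the length of a chosen transcript of each gene. In WT the means per kilobase of transcript were 130391 for Reg3b, 75909 for Reg3g, 6410.2 for Reg4, 1334 for Stat3, 726 for Il10rb, 407 for Reg3a, 393 for Il22ra1, 27.1 for Reg1, 25.5 for Il22ra2 and 1.37 for Il22, in normalized counts per kilobase. Reg3a with an SD of 91.2 and Il22ra1 with 44.0 did not differ beyond their spread, nor did Reg1 with 6.92 and Il22ra2 with 16.8. Reg3b with 33064 and Reg3g with 32330 came apart by more than either SD on this scale, as did the remaining neighbouring pairs. The chosen transcripts have 2927 bases for Stat3, 1850 for Il10rb and 771 for Reg3g. All exons of these genes merged are longer, at 9527, 3808 and 2114 bases. The order and spacing of Stat3, Il10rb, Reg3a and Il22ra1, and the gap between Reg3b and Reg3g, therefore depend on the length used.

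Genes known to respond to IL-22 and STAT3 in epithelium were read next, from a list of 22 genes, of which 21 were tested. Of these, 0 were called (2, S100a8 and Cxcl5, had an unadjusted p under 0.05), 16 had a positive and 5 a negative log2 fold change, and their median was 0.55, beside 0.00 over all tested genes, of which 50.6% were positive. S100a8 and S100a9 also belong to the neutrophil list below and count in both. The part of neutrophils in their values was not tested. Without KO4 the median was 0.11 over 20 tested genes, and without KO4 and KO5 it was -0.01 over 19. KO4 was the highest library for 16 of the 21, beside 25.6% of all tested genes. Cxcl1, among the 16 and among the positive genes, passed the filter on low values only through KO4. Socs3, the feedback inhibitor of STAT3 signalling, held 394, 1180.2, 531 and 559 normalized counts in WT3, WT5, WT7 and WT8, and 2622, 774, 492 and 881 in KO4, KO5, KO7 and KO8. Lcn2, which encodes an iron-scavenging antibacterial protein, held 36.3 to 91.0 in WT, 492 for KO4, 127 for KO5, 37.8 for KO7 and 68.5 for KO8.

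Several genes of this list were high in KO4 and not in the rest of Gsdme_KO. Saa1, an acute-phase protein of the epithelium, held 747, 1621, 708 and 1743 normalized counts in the WT libraries in the order above, 5648 in KO4, and 892, 329 and 237 in KO5, KO7 and KO8. Nos2, the inducible nitric oxide synthase, held 1205, 2828, 1375 and 2941 in WT, 7674 in KO4, and 996, 1322 and 935 in the other 3. Dmbt1, a secreted bacteria-binding glycoprotein, held 7432, 5629, 6427 and 8553 in WT, 13009 in KO4, and 4383, 4051 and 5086 in the rest. Dmbt1 was the sole gene of the 21 with KO4 above and the other 3 Gsdme_KO libraries below every WT library. By contrast Duox2, the epithelial hydrogen peroxide source and one of the 2 most abundant genes of the list, was highest in KO5 at 32522, and the other 3 Gsdme_KO libraries lay inside the WT range of 8904 to 30701. Pigr, the carrier of secretory IgA and the other of the 2, held 14039.8 to 20145 in WT and 13278 to 19203 in Gsdme_KO, and its log2 fold change was -0.06 ± 0.16 (SE, limma adjusted p = 0.947).

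**Figure D5:**
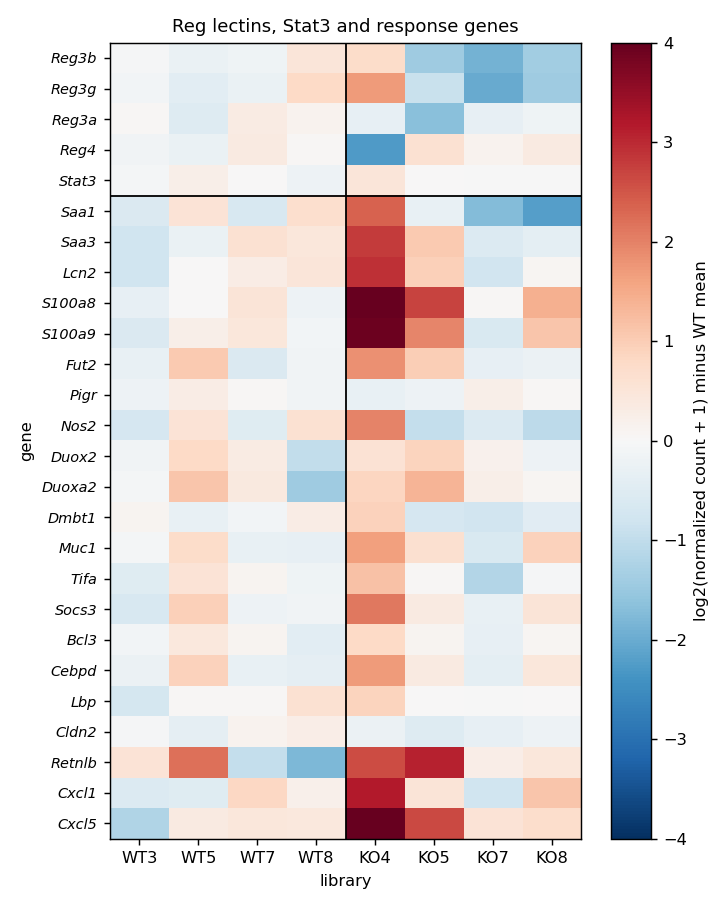
Colour gives log2(normalized count + 1) minus the WT mean of the gene, for 5 of the 10 genes above the line and the 21 tested response genes below it (y axis) in the 8 libraries (x axis); the colour scale ends at 4, and values above it, up to 4.58, take the end colour. The KO4 column is red for most response genes, Reg3b and Reg3g are blue in KO5, KO7 and KO8, and Reg4 is deepest blue in KO4.

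Upstream of IL-22, the 14 genes of the cytokines and receptors that induce it included 11 tested genes, of which 0 were called, 8 were positive and 3 negative (median log2 fold change 0.43, and 0.13 over the 10 genes tested without KO4). Of the 11, 2 (Il6 and Il18) had an unadjusted p under 0.05. Il6 passed the filter on low values only through KO4, at 46.1 normalized counts against 1.13 to 14.3 in the other libraries, and was not tested without it. Il23a, a subunit of the main inducer IL-23, held 0 to 3.57 normalized counts in WT and 0.751 to 8.53 in Gsdme_KO and was not tested, and KO4 with 7.37 was not the highest. Ltbr, the lymphotoxin beta receptor, held 1661 to 2202 in WT and 1915 to 2128 in Gsdme_KO (limma adjusted p = 0.849), and Il18 held 961 to 1284 in WT and 466 to 999 in Gsdme_KO (limma adjusted p = 0.849). The list of type 3 lymphoid and Th17 genes had 14 of 18 tested, with 0 called, 11 positive and 3 negative (median 0.28). Il22 is itself in this list and counts among the positive genes, though it was tested only because of its KO4 value. When KO4 and KO5 were left out together, 11 genes of the list were tested and the median was -0.02. Il17a was at 0 in 6 libraries and held 0.922 in KO4 and 1.50 in KO5. Tmem176b and Tmem176a, the 2 most abundant genes of that list, were highest in KO4 at 6431 and 4549.7, and next in KO5 at 5684 and 3764, above WT values of at most 4584 and 3042.

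Downstream of the receptor, the 20 JAK-STAT and gp130 genes were all tested, with 0 called, 16 positive and 4 negative (median 0.16). Without KO4, 10 were positive and the median was 0.00, and without KO4 and KO5 it was -0.08 over 19 tested genes. KO4 was the highest library for 14 of the 20, beside 25.6% of all tested genes. Jak1 and Jak2, the most abundant of the list, differed little, with log2 fold changes of 0.04 ± 0.11 and -0.04 ± 0.08 (SE, limma adjusted p = 0.946 and 0.921). Among 10 other cytokine and receptor genes of the IL-10 family, 3 were tested, with 0 called, 2 positive and 1 negative (median 0.06). Ifnlr1, the interferon lambda receptor that pairs with IL-10RB, held 391 to 516 in WT and 390 to 483 in Gsdme_KO, and Il10ra held 91.8 to 171 in WT, 488 in KO4, 265 in KO5 and 90.2 and 102 in KO7 and KO8.

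Cell types that make or answer these genes were checked by their markers, and 0 genes of the lists below were called by limma or edgeR, while DESeq2, which called 8 genes higher and 1 lower over the table, called Fcer2a, Pax5 and Bank1 of the B cell list. The 9 Paneth cell genes gave 7 positive and 2 negative (median 0.28), and their sum was 229206 in KO4, within the WT range of 192053 to 373477, and highest in KO5 at 476842. The Paneth sums of KO7 and KO8, 223135 and 296374, also lay within the WT range. Mature enterocyte genes gave 1 positive and 11 negative of 12 (median -0.54), goblet cell genes 2 and 6 of 8 (-0.18), enteroendocrine genes 2 and 8 of 10 (-0.31) and ileum identity genes 1 and 5 of 6 (-0.39). With KO4 and KO5 left out, 11 of 12 enterocyte genes (median 0.09) and 5 of 6 ileum identity genes (0.33) were positive, and 4 of 9 Paneth cell genes (-0.14). Genes of the proximal small intestine gave 3 and 3 of 6 tested (0.12), of the large intestine 1 and 2 of 3 (-0.52) and of exocrine pancreas 5 and 0 of 5 (0.25). B cell genes gave 12 and 0 of 12 (2.60), follicle-associated epithelium 6 and 1 of 7 (0.70), dendritic cell genes 10 and 0 of 10 (0.46), T cell genes 10 and 0 of 10 (0.98) and neutrophil genes 10 and 0 of 10 (1.31). With KO4 and KO5 left out, these 5 medians were -0.09, 0.05, -0.04, 0.31 and 0.09, over the 6, 6, 9, 10 and 6 genes then tested. Apart from T cells, the medians with and without KO4 and KO5 therefore cover different sets of genes. At an unadjusted limma p under 0.05 there were 5 B cell, 1 follicle-associated epithelium, 1 dendritic cell, 4 T cell, 2 neutrophil and 4 enteroendocrine genes.

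KO4 and KO5 shared the high immune markers but not the high lectins. The 12 neutrophil markers summed to 665 to 1252 in WT, 3012 for KO4, 1929.9 for KO5, 720.0 for KO7 and 898 for KO8, and T cell markers to 447 to 607 in WT, 1785 for KO4, 1344 for KO5, 569 for KO7 and 604 for KO8. KO5 held B cell, T cell and neutrophil markers above every WT library, yet its Il22 was 1.50, its Stat3 lay inside the WT range and its Reg3b and Reg3g lay below it. KO7 and KO8 had B cell and neutrophil sums inside the WT range, with Reg3b and Reg3g again below every WT library. With KO4 and KO5 both left out, the log2 fold change was -1.63 ± 0.27 for Reg3b and -1.72 ± 0.34 for Reg3g (SE, limma adjusted p = 0.877 and 0.999). The part of infiltrating cells in the KO4 values was not tested.

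The genes whose log2 values went most closely with Reg3g over the 8 libraries, among 14174 protein-coding genes ranked, were Ttc9c (Pearson r = 0.98, 0.95 without KO4 and KO7), Ifit1 (0.97 and 0.96), Ccdc184 (0.97 and 0.92), Nr4a3 (0.97 and 0.89) and Npepps (0.96 and 0.87). Ifit1, an interferon-induced gene, held 1876 to 2863 normalized counts in WT, 3247 in KO4 and 1434 to 1769 in the other Gsdme_KO libraries. For Stat3 they were Maff (0.99, 0.90 without KO4 and WT5), Ifi35 (0.98 and 0.74), Parp10 (0.96 and 0.71), Gtpbp2 (0.96 and 0.62) and Pde4a (0.96 and 0.85). These genes were picked for their r among many, all points share the same 8 libraries, and KO4 lies far from the others for both, so the values are a description.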

How the data were processed

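Total RNA from ileum was poly(A)-selected and sequenced as strand-specific libraries, 1 per mouse, per the labels' protocols. Tools named in the submitters' processing notes are featureCounts and Subread, HISAT2, SAMtools and DESeq2, with the build GRCm38. Tool versions, strand setting and annotation release were not given in the sources used here. As deposited, values are normalized signal, meaning a gene's read count over 1 divisor for each library. Multiplying back gave whole reads for 100% of values within 0.01 reads.

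Columns were assigned to a genotype only, since their header numbers (WT3 to WT8, KO4 to KO8) differ from the label numbers 1 to 4. Genotypes were compared by limma-trend (limma 3.58.1, R 4.3.3) on log2(normalized count + 1) for 16352 genes with a mean of at least 10, without covariates, with calls where the Benjamini-Hochberg adjusted p was under 0.05. Fold changes on this scale understate those of low genes. edgeR 4.0.16 and DESeq2 1.42.0 were run on recovered reads. Other alternatives were pseudocounts of 0.5 and 5, no filter, a mean of at least 50, TMM and quantile scaling, array weights, each library left out, and KO4 and KO5 left out together. On simulated data for 16352 genes the limma step called 46.2% of genes changed 2-fold and 86.2% of those changed 4-fold. Those data held 200 changed genes per run and noise drawn separately for each gene, without a library apart in many genes. In the real data limma called 1 gene and missed Gsdme, so these shares do not carry over to the 10 genes. The genes described and the 21 gene lists (213 symbols) were chosen with earlier results of these data known. Besides those 10 genes, the text names Gsdme, the other Reg genes, the 2 most abundant tested genes of a list where it describes one, Socs3, Saa1, Lcn2, Nos2, Il23a and Il17a, and the 5 genes most like Reg3g and Stat3. Dmbt1, S100a8, S100a9, Saa3, Cxcl1, Cxcl5, Il6, Fcer2a, Pax5, Bank1 and the pancreas genes at 0 were named after their values were seen. The result of 1 gene that the rule names is not reported here.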

Additional observations from a re-analysis of the deposited data

Results flagged for a closer look

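In 5 of 22 groups of 4 libraries, 1 library lay farther from the rest than Dixon's 95% limit for the gap over the range. Chance alone passes that limit in about 1 of 20 groups. KO4 was the library apart for Reg3b, at 167295 normalized counts (gap over range 0.922), for Reg3g, at 181666 (0.905), for Il22, at 74.7 (0.946), and for Stat3, at 5379 (0.950). WT8 was apart for Reg3g within WT, at 95493 (0.830), only just past the limit. The 4 values of KO4 come from 1 mouse and are not independent of each other. KO4 also carried the highest sums of B cell, T cell, dendritic cell and neutrophil markers, whose part in these values was not tested.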

How the results depend on the processing

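No paired analysis was possible because the header numbers of the columns cannot be tied to the mouse numbers in the labels. Among the 10 genes, as far as each was fitted and given a p, 0 were called in each direction under all 18 alternatives. Gene calls over the whole table were 8 higher and 1 lower with DESeq2, 0 higher and 1 lower without KO4 and KO5, and 0 to 1 higher and 0 lower when single libraries were left out. In both settings with a gene called lower, that gene was Gsdme. For Gsdme, leaving out 1 library gave log2 differences of -3.71 to -2.88 with exact permutation p = 0.0571, the smallest that 3 against 4 libraries allow, and leaving out KO4 and KO5 gave -2.37 with exact permutation p = 0.133.

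Several signs turned. Array weights gave 0.0125 for Reg1, 0.19 for Reg4 and -0.31 for Il22ra2. Reg3g was 0.0740 with edgeR and 0.0707 with DESeq2, and Reg4 was 0.0313 and 0.0249. Without KO4 and KO5 the log2 fold change was 0.25 for Reg4, -0.44 for Il22ra2, 0.0165 for Il10rb and -0.0123 for Stat3. Over single libraries left out, Reg1 ran from -0.52 to 0.0147, Reg4 from -0.59 to 0.37, Il22ra2 from -0.18 to 1.02, Il10rb from -0.12 to 0.0239 and Stat3 from -0.00551 to 0.19. The sign turned without KO4 for Reg4 and Stat3, without KO7 for Reg1, without WT5 for Il22ra2 and Il10rb, and without WT3 for Il10rb. Reg3b, Reg3a, Il22 and Il22ra1 kept their sign wherever they were fitted. Causes were not tested. Il22 was not fitted without KO4 or at a mean of at least 50, which Reg1 did not reach either, and DESeq2 gave no p for Reg3b, Reg3g and Il22. Without KO4 and KO5 the median of the B cell list was -0.09, over the 6 of its 12 genes then tested. Depth limits Il22, Reg1, Reg2, Reg3d and Iltifb, since most libraries hold few of their reads.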
